A study of Mus musculus with 24 samples.

Results

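The genes described here encode desmosomal cadherins with desmoplakin, classical and atypical cadherins, and nonclustered protocadherins. They were taken by symbol from a table of RNA abundance in mouse uterus: Cdh, Pcdh, Dsg or Dsc followed by a number, and Dsp, without Cdh1 (E-cadherin) and Cdh5 (VE-cadherin). This gave 43 of the 22943 genes in the table. They comprised 10 desmosomal genes, 4 type I classical cadherins, 12 type II classical cadherins, 5 atypical cadherins and 12 nonclustered protocadherins. Bulk RNA was sequenced from whole uteri of female C57bl/6 mice aged 21 days. In the knockouts (PgreCre+;Ctcf-f/f in the labels), Cre recombinase from the gene of the progesterone receptor, Pgr, deletes floxed Ctcf, which encodes a DNA-binding protein that holds the bases of chromatin loops. The floxed animals (Ctcf-f/f) were littermates without Cre, so every uterus carried the floxed alleles, and the effect of losing Ctcf cannot be told apart from that of carrying Cre. Animals received 0.5 mg of progesterone (P4) in 0.05 ml of sesame oil under the skin for 6 h, or 0.05 ml of oil alone as vehicle. There were 4 knockout and 4 floxed libraries after progesterone, and 8 knockout and 8 floxed libraries after vehicle. The labels do not say that each library is a separate animal, so p-values measure the spread between these samples, which may be technical in part.

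Classical cadherins span the membrane, bind cadherins on the neighbouring cell in the presence of calcium, and hold actin through beta-catenin and alpha-catenin at the adherens junction. Desmogleins and desmocollins do the same at the desmosome, where plakoglobin, plakophilins and desmoplakin tie them to keratin filaments. Nonclustered protocadherins have similar extracellular repeats but different cytoplasmic tails, adhere weakly, and are best known from the nervous system. In the uterus E-cadherin joins epithelial cells, VE-cadherin joins endothelial cells, and Cdh11 is a cadherin of stromal cells; steroid hormones alter epithelial junctions before implantation.

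The deposited values are batch-corrected RPKM (reads scaled to gene length and library size, then corrected), called RPKM below. The labels give 2 library batches, a mixed batch with 4 libraries of each group and a vehicle-only batch with the other 4 knockout and 4 floxed vehicle libraries. Depth, estimated from the worth of 1 read, was 43700000 to 100400000 reads for the mixed batch and 30900000 to 57700000 reads for the vehicle-only batch. Ctcf averaged 9.95 ± 0.982 RPKM in knockout and 26.0 ± 1.05 RPKM in floxed uteri after progesterone (SD, n = 4 each). After vehicle it averaged 11.5 ± 1.11 RPKM in knockout and 25.9 ± 2.36 RPKM in floxed uteri (SD, n = 8 each), and the ranges of knockouts and controls did not overlap under either treatment. Some libraries stood apart by genes of squamous epithelium or oviduct, and whether this RNA came from neighbouring tissue was not tested. Krt5, a keratin of squamous epithelium, was highest in knockout vehicle library 9 (50.5 RPKM) and knockout progesterone library 8 (14.8 RPKM). Knockout vehicle library 9 also had the highest sums of 6 stromal (2284 RPKM) and 6 smooth muscle markers (1700 RPKM), and the lowest depth of the mixed batch. Ovgp1, the oviductal glycoprotein, was highest in floxed progesterone library 7 (380 RPKM), knockout vehicle library 12 (191 RPKM) and floxed vehicle library 3 (146 RPKM). Results that changed without these 5 libraries are given with and without them.

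Cdh11 had by far the highest mean level of the 43 genes, with 44.1 ± 15.2 RPKM over all 24 libraries (SD). It was followed by Pcdh7 (14.6 ± 3.69 RPKM), Pcdh1 (12.2 ± 1.44 RPKM), Cdh13 (11.1 ± 3.09 RPKM), Pcdh18 (9.40 ± 2.96 RPKM), Dsp (8.43 ± 2.34 RPKM), Cdh16 (7.71 ± 5.99 RPKM) and Cdh2 (6.05 ± 2.09 RPKM). From Pcdh1 down, neighbours in this order lay within 1 SD of each other, and Pcdh7 lay above Pcdh1 by more than the SD of Pcdh1 and less than its own. Cdh1 and Cdh5, which are outside the set, averaged 30.7 ± 5.63 and 62.7 ± 11.1 RPKM. A gene was tested when it reached 1 RPKM in at least 4 libraries, which 18 of the 43 genes did. These were Dsc2, Dsg2 and Dsp among desmosomal genes, Cdh2, Cdh3 and Cdh4 of type I, and Cdh6, Cdh10, Cdh11 and Cdh24 of type II. The others were the atypical Cdh13 and Cdh16 and the protocadherins Pcdh1, Pcdh7, Pcdh12, Pcdh17, Pcdh18 and Pcdh19. Of the 25 genes not tested, 11 stayed below 0.1 RPKM in every library and 9 peaked between 0.1 and 0.5 RPKM. The other 5, Dsc3, Pcdh9, Cdh19, Dsg4 and Dsg3, reached 0.5 RPKM or more in at least 1 library.

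**Figure D1:**
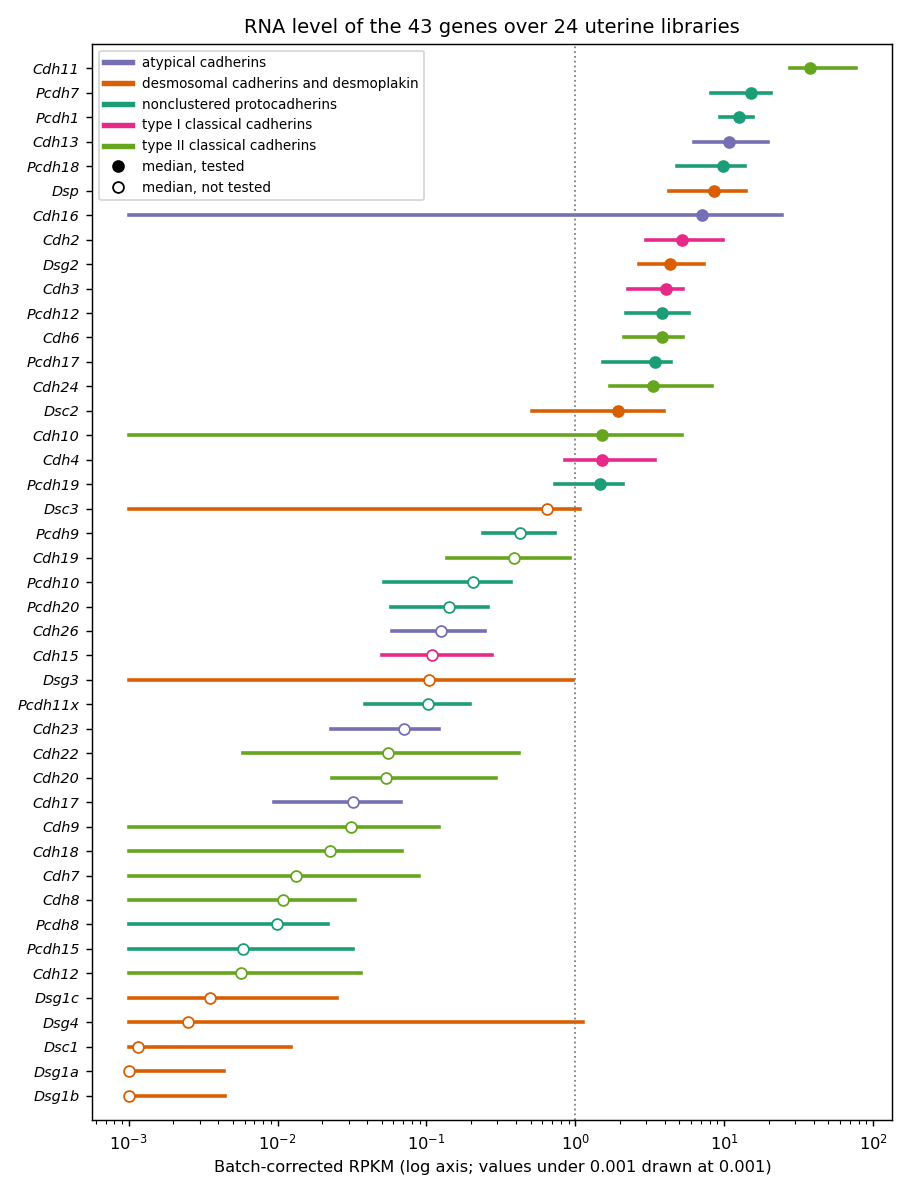
Lowest, median and highest batch-corrected RPKM (log axis) of each of the 43 genes over 24 libraries, coloured by class. Filled points are the 18 tested genes and open points the 25 others; Cdh11 is highest, and Dsg4 has a median of 0.00251 RPKM but reaches 1.12 RPKM.

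The first question was how knockout uteri differed from floxed uteri after vehicle. Of the 18 tested genes, 8 were higher in knockouts (13.1% of all tested genes were) and 3 were lower (11.5% of all tested genes), at an adjusted p of at most 0.05 from limma over 14284 genes. In either direction 11 of 18 genes passed, against 24.6% of all tested genes. The 3 that fell were the desmosomal genes Dsc2 and Dsp and the type II cadherin Cdh10. All 3 tested type I cadherins rose. The median log2 difference was 0.04 over the 18 genes and −0.01 over all tested genes.

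Dsc2, the desmocollin of simple epithelia and heart, had 1.01 to 2.68 RPKM (median 1.45) in knockout vehicle uteri and 2.36 to 3.94 RPKM (median 2.88) in floxed vehicle uteri. The groups overlapped through knockout library 9 alone, the library with the most Krt5. The log2 difference was −0.78 ± 0.15 (SE; adjusted p = 0.000392), a 0.582-fold level on the log2(RPKM + 0.5) scale used for all differences here. Desmoplakin (Dsp), the plaque protein that holds keratin filaments, had 5.29 to 9.13 RPKM (median 7.07) in knockout and 9.35 to 13.9 RPKM (median 10.5) in floxed vehicle uteri. The 2 ranges did not overlap (3.63% of all tested genes were lower in this way), and the log2 difference was −0.58 ± 0.13 (adjusted p = 0.00191). Dsg2, the desmoglein found in every desmosome-bearing tissue, had 2.66 to 4.65 RPKM (median 3.67) in knockout and 3.97 to 7.14 RPKM (median 4.54) in floxed vehicle uteri, with a log2 difference of −0.38 and an adjusted p of 0.0535 (−0.42 and 0.0448 without the 5 libraries named above, and 0.0364 to 0.0453 without knockout library 4 or 10 or floxed library 4). In the mixed batch alone the log2 difference was −0.61 for Dsc2 (adjusted p = 0.0673) and −0.35 for Dsp (adjusted p = 0.203), and in the vehicle-only batch it was −0.95 and −0.81.

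Markers of simple epithelium moved in the same comparison. Of 8 listed genes, all tested, Krt8, Krt18, Krt19 and Cldn3 fell and Cldn4 rose in knockouts after vehicle. Their summed level was 277 to 418 RPKM in knockout and 376 to 590 RPKM in floxed vehicle uteri. In bulk RNA, fewer cells of a type and less RNA per cell cannot be told apart, and the part of epithelial content in the desmosomal differences was not tested.

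The type I cadherins bind at adherens junctions. Cdh2 (N-cadherin; chr18:16588877-16809246), the cadherin of mesenchymal and neural cells, had 6.96 to 9.81 RPKM (median 8.92) in knockout and 4.82 to 6.18 RPKM (median 5.20) in floxed vehicle uteri. Cdh4 (R-cadherin), first known from retina, had 1.96 to 2.66 RPKM (median 2.36) in knockout and 0.940 to 1.51 RPKM (median 1.21) in floxed vehicle uteri. Neither pair of ranges overlapped (4.80% of all tested genes were higher in this way), and the log2 differences were 0.64 ± 0.08 for Cdh2 (adjusted p = 3.64e-06) and 0.70 ± 0.11 for Cdh4 (adjusted p = 4.22e-05). These calls held in each batch taken alone and in every alternative analysis. Cdh3 (P-cadherin; chr8:106510891-106557297), known from placenta and basal epithelium, had 3.74 to 5.30 RPKM (median 4.58) in knockout and 2.25 to 4.37 RPKM (median 2.83) in floxed vehicle uteri. These ranges overlapped, and the log2 difference was 0.53 ± 0.10 (adjusted p = 0.000527). In the vehicle-only batch alone it was 0.39 (adjusted p = 0.312).

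Among type II cadherins, Cdh11 (chr8:102632095-102785642) had 33.7 to 51.0 RPKM (median 40.8) in knockout and 30.0 to 37.3 RPKM (median 33.6) in floxed vehicle uteri. The groups overlapped and the log2 difference was small, 0.31 ± 0.09 (adjusted p = 0.0175). It was 0.39 in the mixed batch (adjusted p = 0.0715) and 0.23 in the vehicle-only batch (adjusted p = 0.277). Cdh24 rose by 0.67 ± 0.16 (adjusted p = 0.00253), by 0.36 in the mixed batch (adjusted p = 0.176) and by 0.99 in the vehicle-only batch. Cdh10, a cadherin known mainly from brain, had 0.791 to 3.57 RPKM (median 1.52) in knockout and 2.10 to 5.22 RPKM (median 3.70) in floxed vehicle uteri. Its log2 difference was −0.93 ± 0.24 (adjusted p = 0.00597), being −1.34 within the mixed batch and −0.52 within the other (adjusted p = 0.441). Cdh6 averaged 4.05 ± 0.720 RPKM in knockout and 3.93 ± 0.467 RPKM in floxed vehicle uteri (SD, n = 8 each; adjusted p = 0.882).

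Both tested atypical cadherins were higher in knockouts after vehicle (13.1% of all tested genes were), and both differences were uneven between batches. Cdh16 (KSP-cadherin; chr8:104601911-104624396), a cadherin known from kidney epithelium that lacks the catenin-binding tail, had 4.89 to 20.5 RPKM (median 9.21) in knockout and −0.403 to 7.18 RPKM (median 3.33) in floxed vehicle uteri. Its log2 difference, 1.79 ± 0.41 (adjusted p = 0.00243), was the largest rise among the 18 genes. It was 2.99 in the vehicle-only batch, where the correction placed a floxed library below 0, and 0.59 in the mixed batch (adjusted p = 0.271). A correction by 1 constant leaves RPKM differences within a batch unchanged. The knockout mean of Cdh16 exceeded the floxed mean by 11.2 RPKM in the vehicle-only batch and by 3.05 RPKM in the mixed batch. Cdh13 (T-cadherin), which is held by a lipid anchor and binds adiponectin, rose by 0.49 ± 0.13 (adjusted p = 0.00876). It was 0.80 in the vehicle-only batch and 0.18 in the mixed batch (adjusted p = 0.392). Its highest value, 19.7 RPKM, was in knockout vehicle library 5, which also had the highest sum of 4 adipose markers (718 RPKM); the call held without that library.

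Of 6 tested protocadherins, Pcdh12 passed after vehicle (24.6% of all tested genes did). Pcdh12, a protocadherin of endothelial cells, had 3.93 to 5.84 RPKM (median 5.05) in knockout and 3.56 to 4.66 RPKM (median 3.69) in floxed vehicle uteri. The log2 difference of 0.31 ± 0.10 (adjusted p = 0.0335) lost its call without knockout library 10, 11a, 11b or 12 or floxed library 1a, 1b, 2, 3 or 4 (0.27 to 0.30, adjusted p = 0.0535 to 0.0736) and without the 5 libraries named above (0.28, adjusted p = 0.118), and was 0.13 in the vehicle-only batch. VE-cadherin (Cdh5), also endothelial, rose by 0.37 on the log2 scale, while of 7 endothelial markers 1, Egfl7, rose. Their summed level was 220 to 328 RPKM in knockout and 194 to 244 RPKM in floxed vehicle uteri, and the part of endothelial content was not tested. Pcdh18 had a log2 difference of −0.24 (adjusted p = 0.0938; 0.0243 without knockout library 11a and 0.0222 without floxed library 1a), and Pcdh1, Pcdh7, Pcdh17 and Pcdh19 had log2 differences between −0.06 and 0.05.

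**Figure D2:**
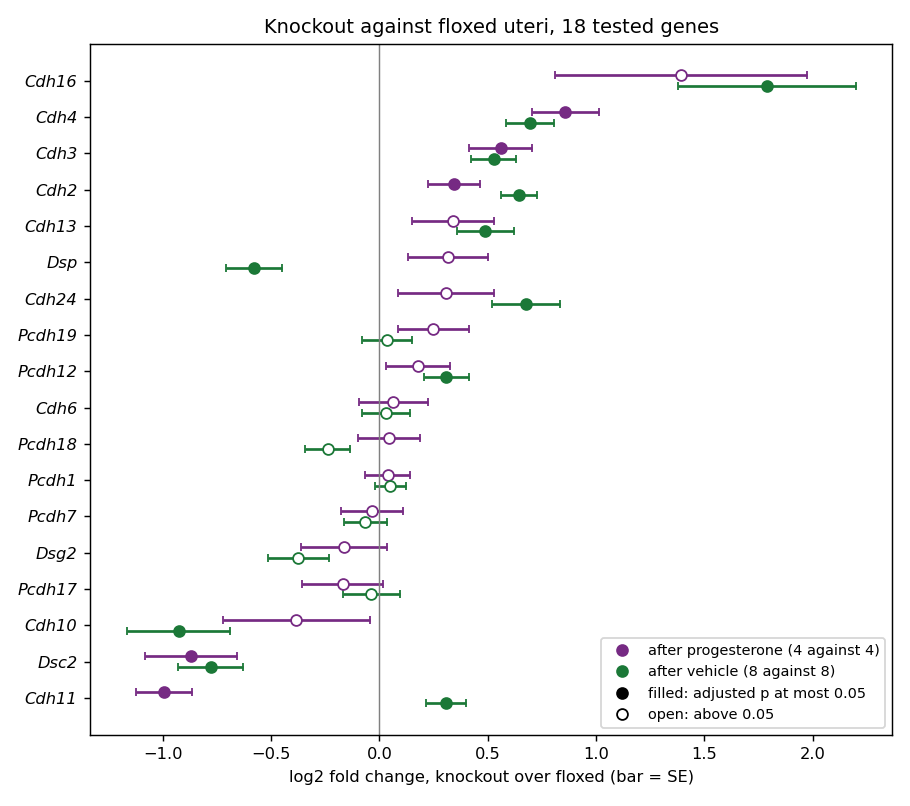
Log2 fold change of the 18 tested genes, knockout over floxed, with SE bars, after progesterone (4 against 4 libraries) and after vehicle (8 against 8 libraries); filled points have an adjusted p of at most 0.05. Cdh11 lies at −0.995 after progesterone and 0.31 after vehicle, while Cdh2, Cdh3 and Cdh4 lie above 0 and Dsc2 below 0 under both treatments.

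The same genotypes were compared after progesterone. Here 3 of the 18 genes were higher in knockouts (12.3% of all tested genes) and 2 were lower (7.06% of all tested genes), so 5 passed in either direction, against 19.4% of all tested genes. Cdh4, Cdh3 and Cdh2 rose, and Cdh11 and Dsc2 fell. With quantile normalization, under which the share of rises among all called genes was 52.7% and not 63.5%, 2 of the 18 genes were higher and 2 lower. The median log2 difference was 0.12 over the 18 genes and 0.03 over all tested genes.

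Cdh11 had 43.9, 38.9, 27.7 and 40.2 RPKM in the knockout uteri after progesterone, against 75.4, 71.4, 74.9 and 76.8 RPKM in the floxed uteri. Every knockout library lay far below every floxed one (9.66% of all tested genes were lower without overlap), and the 4 floxed libraries lay close together. The log2 difference was −0.995 ± 0.132 (adjusted p = 9.78e-06), a 0.502-fold level. Its direction was opposite to that after vehicle. Of 6 stromal markers Pdgfra fell in the same comparison, and their sum was 869 to 1315 RPKM in knockout and 961 to 1353 RPKM in floxed uteri; the part of stromal content was not tested.

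Dsc2 had 1.5, 1.14, 0.508 and 0.628 RPKM in knockout and 1.52, 2.28, 2.23 and 2.21 RPKM in floxed uteri after progesterone. The highest knockout library came close to the lowest floxed library but did not pass it, and the log2 difference was −0.87 ± 0.21 (adjusted p = 0.00508). Of the 8 epithelial markers, Cldn4 and Epcam rose and 0 fell in knockouts at this treatment. The sum of the 8 was 409 to 591 RPKM in knockout and 362 to 567 RPKM in floxed uteri. The part of epithelial content in the Dsc2 difference was not tested. Dsp, lower in knockouts after vehicle, had 8.31, 9.37, 8.40 and 5.75 RPKM in knockout and 5.75, 4.27, 8.63 and 6.92 RPKM in floxed uteri after progesterone. These ranges overlapped, with a log2 difference of 0.32 (95% interval −0.07 to 0.70; adjusted p = 0.250). Without the 5 libraries with oviduct or squamous markers it was 0.60 (adjusted p = 0.0345). Dsg2 had a log2 difference of −0.16 (adjusted p = 0.611).

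Cdh4 had 3.43, 2.63, 2.05 and 1.52 RPKM in knockout and 1.06, 0.993, 1.37 and 0.849 RPKM in floxed uteri after progesterone. Cdh3 had 4.24, 4.96, 4.31 and 4.37 RPKM in knockout and 3.58, 2.73, 2.88 and 2.37 RPKM in floxed uteri. For both genes every knockout library was above every floxed library (11.8% of all tested genes were higher in this way). The log2 differences were 0.86 ± 0.15 for Cdh4 (adjusted p = 0.000342) and 0.56 ± 0.15 for Cdh3 (adjusted p = 0.00877; 0.0524 without the 5 libraries, with a log2 difference of 0.57). Cdh2 was higher by 0.34 ± 0.12 (adjusted p = 0.0439), a call that was lost without knockout library 4, 5 or 6 or floxed library 1 or 7 (0.27 to 0.34, adjusted p = 0.0737 to 0.153) and without the 5 libraries together (0.30, adjusted p = 0.143). Cdh16 had 24.2, 17.2, 7.08 and 8.59 RPKM in knockout and 3.69, 3.49, 7.53 and 4.21 RPKM in floxed uteri, overlapping through 1 library on each side. Its log2 difference was 1.39 ± 0.58 with an adjusted p of 0.0990, and 0.00824 when the mixed batch, which holds all of these libraries, was fitted alone. Pcdh12 had a log2 difference of 0.18 (adjusted p = 0.449), and those of the other 5 protocadherins lay between −0.17 and 0.25.

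The second question was what 6 h of progesterone did within each genotype. The 2 genotype comparisons and the 2 hormone comparisons share libraries, so each is given with its own values only. In knockout uteri 5 of the 18 genes fell (4.66% of all tested genes), and by limma 0 of the 18 rose (4.00% of all tested genes). At an unadjusted p under 0.05, 0 rose. When libraries were weighted 2 rose, as did 2184 of all 14284 tested genes. The 5 in either direction compare with 8.67% of all tested genes. In floxed uteri 1 of the 18 genes rose (7.84% of all tested genes) and 6 fell (15.1% of all tested genes), so 7 passed in either direction, against 23.0% of all tested genes. The log2 difference was below 0 in 14 of 18 genes in knockout and in 15 of 18 genes in floxed uteri. Its median over the 18 genes was −0.42 in knockout and −0.32 in floxed uteri, against −0.02 in knockout and −0.06 in floxed uteri over all tested genes. With quantile normalization, under which the share of rises among all called genes in floxed uteri was 46.5% and not 34.1%, the counts among the 18 genes were 5 fallen in knockout uteri and 1 risen and 6 fallen in floxed uteri.

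Cdh10 (chr15:18818947-19014236) had the largest fall of the 18 genes in both genotypes. It had −0.000155, −0.405, 0.0349 and −0.217 RPKM in the knockout uteri after progesterone, against 0.791 to 3.57 RPKM (median 1.52) after vehicle. The floxed uteri had −0.187, 0.688, −0.0505 and 0.153 RPKM after progesterone, against 2.10 to 5.22 RPKM (median 3.70) after vehicle. Values below 0 come from the correction. If this took the same amount from all mixed-batch libraries, uncorrected Cdh10 levels were higher by at least the size of the lowest value, −0.405 RPKM. The ranges did not overlap in either genotype (4.05% of all tested genes fell in this way in knockout and 9.15% in floxed uteri). The log2 differences, which depend on the correction and on the added 0.5 for values this low, were −2.01 ± 0.32 in knockout (adjusted p = 0.000331) and −2.56 ± 0.32 in floxed uteri (adjusted p = 4.59e-06). On the linear scale the knockout fall had an adjusted p of 0.0529.

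Of the 6 tested protocadherins, Pcdh7, Pcdh12 and Pcdh18 fell in knockout uteri (4.66% of all tested genes did). Pcdh7, Pcdh18 and Pcdh19 fell in floxed uteri (15.1% of all tested genes did). Pcdh18 (chr3:49743296-49757325), a delta protocadherin whose tail binds the adaptor Dab1, had 6.91, 6.28, 5.99 and 4.97 RPKM in knockout uteri after progesterone, against 8.31 to 13.6 RPKM (median 10.2) after vehicle. In floxed uteri it had 4.83, 6.97, 5.94 and 5.66 RPKM after progesterone, against 8.78 to 13.9 RPKM (median 12.6) after vehicle. The ranges were apart in both genotypes, and the log2 differences were −0.70 ± 0.14 in knockout (adjusted p = 0.00207) and −0.98 ± 0.14 in floxed uteri (adjusted p = 1.67e-05).

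Pcdh7, the protocadherin with the highest mean level here, had 12.2, 10.5, 9.74 and 8.16 RPKM in knockout uteri after progesterone, against 12.5 to 20.7 RPKM (median 16.7) after vehicle. In floxed uteri it had 11.3, 12.2, 9.16 and 8.84 RPKM after progesterone, against 14.6 to 19.4 RPKM (median 17.1) after vehicle. The progesterone libraries lay below all vehicle libraries in both genotypes, with log2 differences of −0.67 ± 0.13 in knockout (adjusted p = 0.00265) and −0.70 ± 0.13 in floxed uteri (adjusted p = 0.000623). The annotation places 2235 of the 10604 exonic bases of Pcdh7 opposite exons of 4932441J04Rik, and 499 of the 9659 exonic bases of Dsp opposite exons of Gm10129, and no source used here states whether the counting used strand. Pcdh19, whose human counterpart is mutated in an epilepsy that mostly affects females, had 0.797 to 1.22 RPKM in knockout uteri after progesterone, against 1.36 to 2.06 RPKM after vehicle. These ranges were apart, but the log2 difference of −0.44 had an adjusted p of 0.0791. In floxed uteri Pcdh19 had 0.769, 0.752, 0.730 and 1.07 RPKM after progesterone, against 0.794 to 2.09 RPKM (median 1.68) after vehicle. Here the ranges overlapped, with a log2 difference of −0.66 ± 0.15 (adjusted p = 0.00364). Pcdh12 fell by 0.50 in knockout uteri (adjusted p = 0.0257), and the adjusted p was 0.0841 without knockout progesterone library 8, the one with squamous markers, 0.0682 and 0.0519 without knockout vehicle library 11b or 12, and 0.216 without all 5 libraries. For Pcdh7, Pcdh12, Pcdh18 and Pcdh19 the difference between the genotypes' responses did not pass (adjusted p = 0.519 to 0.965).

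Cdh2 fell in both genotypes. In knockout uteri it had 4.97, 4.83, 4.68 and 4.27 RPKM after progesterone, against 6.96 to 9.81 RPKM (median 8.92) after vehicle. The floxed uteri had 3.06, 4.45, 2.96 and 4.04 RPKM after progesterone, against 4.82 to 6.18 RPKM (median 5.20) after vehicle. Neither pair of ranges overlapped, and the log2 differences were −0.80 ± 0.11 in knockout (adjusted p = 9.22e-05) and −0.50 ± 0.11 in floxed uteri (adjusted p = 0.00240). Cdh3 and Cdh4, the other type I cadherins, did not pass in either genotype: the log2 differences of Cdh3 were −0.02 in knockout and −0.06 in floxed uteri, and those of Cdh4 0.03 in knockout and −0.14 in floxed uteri. Stromal markers moved too. Of 6 genes Lum and Col1a1 fell in knockout uteri, and Lum fell in floxed uteri. The summed stromal level was 869 to 1315 RPKM in knockout uteri after progesterone, against 1184 to 2284 RPKM after vehicle. In floxed uteri it was 961 to 1353 RPKM after progesterone, against 1197 to 1584 RPKM after vehicle, and the part of stromal content in the falls was not tested. Of 4 mesothelial markers 0 passed in knockout uteri, with a median log2 response of −0.78, and Msln and Upk3b fell in floxed uteri, with a median of −0.85. The mesothelial sum was 13.1 to 30.8 RPKM after progesterone and 26.2 to 53.1 RPKM after vehicle in knockout uteri, and 7.30 to 22.9 RPKM after progesterone and 16.4 to 42.5 RPKM after vehicle in floxed uteri; its part in the falls was not tested either.

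**Figure D3:**
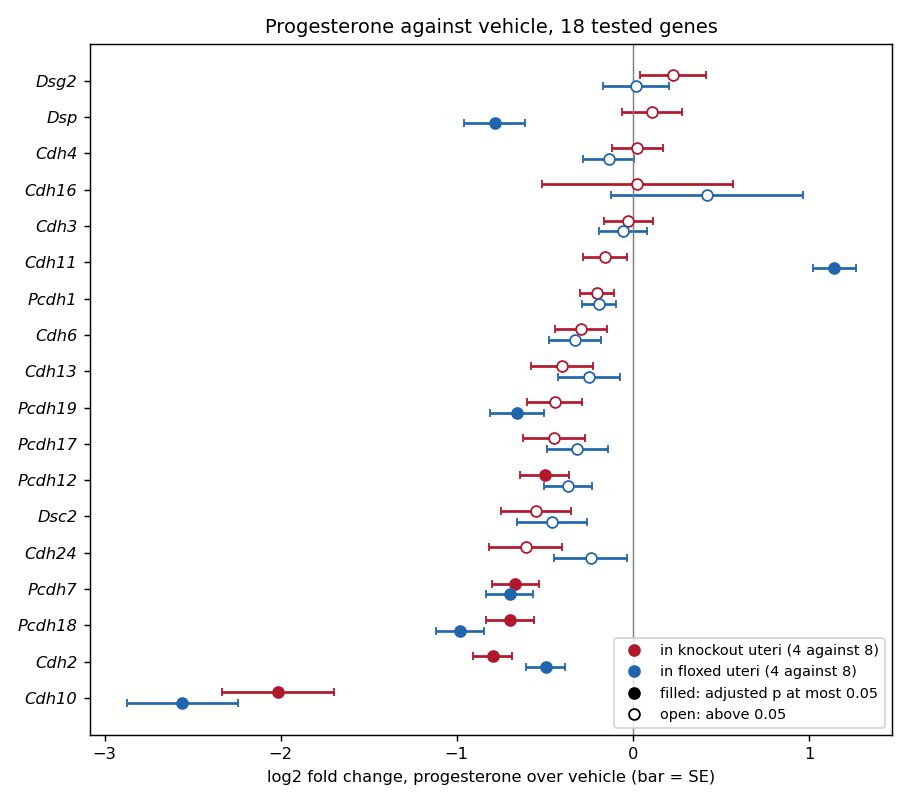
Log2 fold change of the 18 tested genes, progesterone over vehicle, with SE bars, in knockout uteri and in floxed uteri (4 against 8 libraries each); filled points have an adjusted p of at most 0.05. Most points lie below 0 in both genotypes, and Cdh11 at 1.14 in floxed uteri is the only filled point above 0.

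The third question was which responses to progesterone differed between genotypes. Of the 18 genes, Cdh11 had a lower response in knockouts (1.03% of all tested genes did) and Dsp a higher one (1.46% of all tested genes), 2 in either direction against 2.49% of all tested genes. The median difference was 0.01 on the log2 scale over the 18 genes and 0.03 over all tested genes. In knockout uteri the progesterone values of Cdh11, 27.7 to 43.9 RPKM, lay within and below the vehicle range of 33.7 to 51.0 RPKM, with a log2 response of −0.16 (95% interval −0.41 to 0.10; adjusted p = 0.488). In floxed uteri Cdh11 had the progesterone values given above, 71.4 to 76.8 RPKM, against 30.0 to 37.3 RPKM after vehicle, and the ranges did not overlap (4.89% of all tested genes rose in this way). The log2 response was 1.14 ± 0.12 (adjusted p = 5.67e-07), a 2.21-fold level. The response was lower in knockouts by 1.30 ± 0.16 on the log2 scale (adjusted p = 5.22e-05). It was lower by 1.39 in the mixed batch alone (adjusted p = 0.00199).

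Desmoplakin had 5.75 to 9.37 RPKM in knockout uteri after progesterone, against 5.29 to 9.13 RPKM after vehicle. These ranges overlapped over most of their length, with a log2 response of 0.11 (95% interval −0.25 to 0.47; adjusted p = 0.765). In floxed uteri it fell to 4.27 to 8.63 RPKM after progesterone, against 9.35 to 13.9 RPKM after vehicle. The ranges did not overlap, and the log2 response was −0.78 ± 0.17 (adjusted p = 0.00207). The response of Dsp was higher in knockouts by 0.89 ± 0.23 (adjusted p = 0.0325). Of the 8 epithelial markers, Cldn3, Cldn4 and Epcam rose with progesterone in knockout uteri, and Cldn3 rose and Krt8 fell in floxed uteri. The median log2 response of the 8 was 0.46 in knockout and −0.09 in floxed uteri, and none differed in response between genotypes by the test. Their sum was 409 to 591 RPKM after progesterone and 277 to 418 RPKM after vehicle in knockout uteri, and 362 to 567 RPKM after progesterone and 376 to 590 RPKM after vehicle in floxed uteri. The part of epithelial content in the response of Dsp was not tested. This difference was near the threshold: it lost its call without knockout progesterone library 4, 5 or 6, knockout vehicle library 5, 11a or 11b, floxed progesterone library 1 or 2, or floxed vehicle library 7, with log2 differences of 0.73 to 0.88 and adjusted p of 0.0501 to 0.101, and was 0.66 in the mixed batch alone (adjusted p = 0.180). The log2 responses of Dsc2 were −0.55 in knockout and −0.46 in floxed uteri and passed in neither (adjusted p = 0.0876 in knockout and 0.0965 in floxed uteri; without knockout progesterone library 4 the first was −0.72, adjusted p = 0.0302), though the floxed progesterone libraries all lay below the floxed vehicle libraries. Dsg2 had log2 responses of 0.23 in knockout and 0.02 in floxed uteri.

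**Figure D4:**
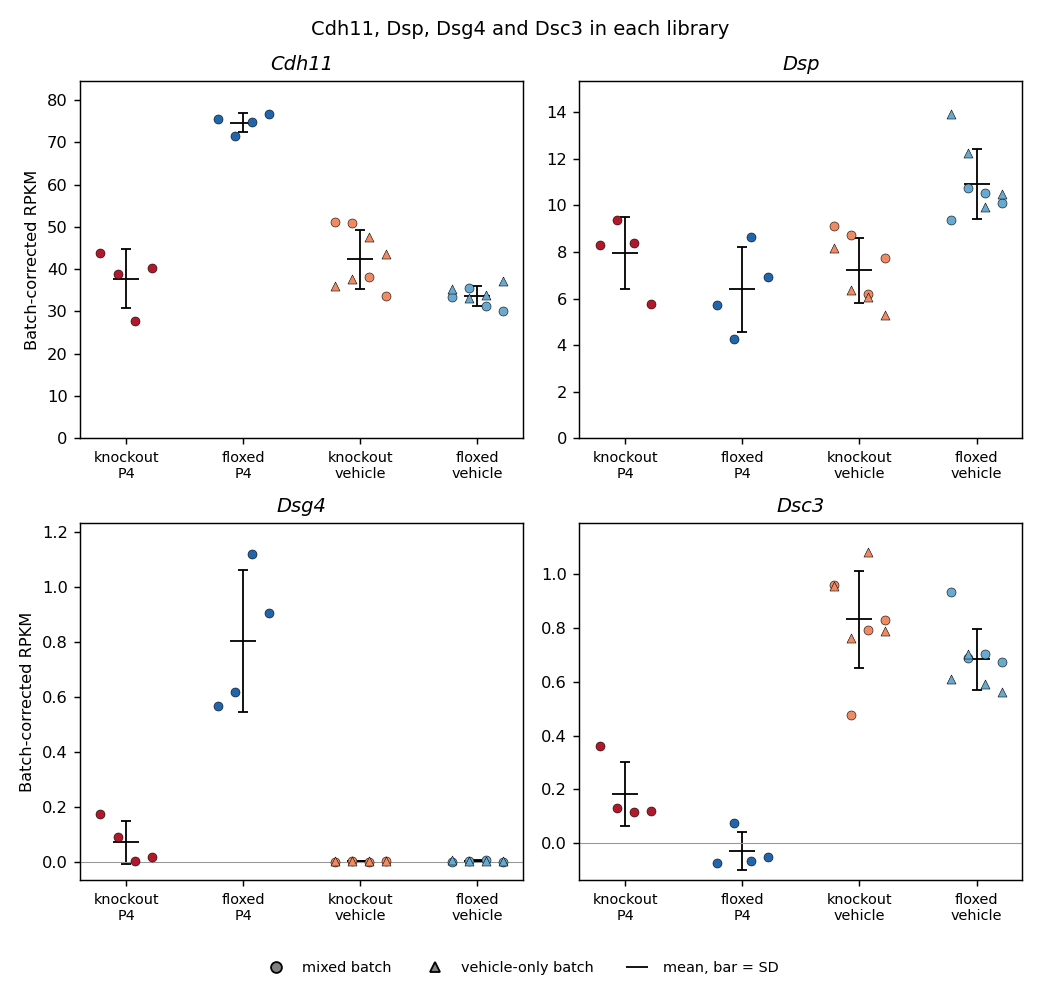
Batch-corrected RPKM of Cdh11, Dsp, Dsg4 and Dsc3 in each of the 24 libraries, by group, with mean and SD; circles are the mixed batch and triangles the vehicle-only batch. Cdh11 and Dsg4 are lower in the 4 knockout uteri than in the 4 floxed uteri after progesterone, while Dsc3 is lower after progesterone in both genotypes.

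Dsg4, which the filter on low values left out, had the clearest pattern of the desmosomal genes; it was singled out after its values were seen. Dsg4 (chr18:20436175-20471821) encodes the desmoglein of hair follicle and upper epidermis. It had 0.172, 0.0892, 0.00366 and 0.0162 RPKM in knockout uteri after progesterone, against 0.568, 0.618, 1.12 and 0.904 RPKM in floxed uteri. After vehicle it did not exceed 0.00307 RPKM in any knockout library or 0.00787 RPKM in any floxed library. By the estimated depth and an exonic length of 3478 bases, the knockout progesterone values correspond to about 1 to 49 reads per library, the floxed progesterone values to about 133 to 258 reads, and the vehicle values to at most about 2 reads. Thus 3 of the 4 knockout progesterone libraries were above all vehicle libraries by a small step, and every floxed progesterone library was above every library of the other groups.

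With no filter, over 22943 genes, the log2 response of Dsg4 to progesterone was 0.18 in knockout uteri (adjusted p = 0.278; 6.14% of all genes passed) and 1.35 ± 0.09 in floxed uteri (adjusted p = 1.24e-09; 15.6% of all genes passed). The added 0.5 makes these log2 values smaller than the change in reads. The response was lower in knockouts by 1.18 ± 0.11 (adjusted p = 3.00e-06; 1.97% of all genes passed), and the call held without the 5 libraries with oviduct or squamous markers and without any single library. After progesterone Dsg4 was lower in knockout than in floxed uteri by 1.18 ± 0.09 (adjusted p = 1.34e-08; 14.1% of all genes passed). The sum of 9 squamous marker genes, Krt5 among them, lay between −1.28 and 51.2 RPKM in the knockout progesterone libraries. In the floxed progesterone libraries it lay between −5.80 and −4.33 RPKM. Sums below 0 come from the correction and cannot show whether squamous RNA was present. Of 6 tested squamous markers 1 rose and 0 fell with progesterone in floxed uteri (7.84% of all tested genes rose), and 0 passed in knockout uteri. The part of squamous content in the Dsg4 values was not tested. Dsg3, the desmoglein of basal squamous cells, reached 0.971 RPKM in knockout vehicle library 9, which has the most Krt5, and at most 0.301 RPKM elsewhere.

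Dsc3 (chr18:19960930-20002351), the desmocollin of basal squamous cells, fell with progesterone in both genotypes. It had 0.363, 0.131, 0.117 and 0.121 RPKM in knockout uteri after progesterone, against 0.477 to 1.08 RPKM (median 0.813) after vehicle. In floxed uteri it had −0.0727, 0.0768, −0.0663 and −0.0500 RPKM after progesterone, against 0.563 to 0.932 RPKM (median 0.681) after vehicle. The progesterone and vehicle ranges were apart in both genotypes, and without the filter the log2 responses were −0.97 ± 0.12 in knockout (adjusted p = 4.74e-05) and −1.19 ± 0.12 in floxed uteri (adjusted p = 5.39e-07). Values below 0 come from the correction, and log2 values this low depend on it. The squamous marker sum in knockout uteri was −1.28 to 51.2 RPKM after progesterone and 3.22 to 126 RPKM after vehicle. In floxed uteri it was −5.80 to −4.33 RPKM after progesterone and −5.61 to 25.7 RPKM after vehicle. Of 6 tested squamous markers 0 fell in either genotype. The part of squamous content in the falls of Dsc3 was not tested. After progesterone Dsc3 was higher in knockout than in floxed uteri by 0.38 on the log2 scale with an adjusted p of 0.0501 (0.0494 without knockout library 6 and 0.0493 without floxed library 2), and the difference in response had an adjusted p of 0.626. Pcdh10, another delta protocadherin, averaged 0.0874 ± 0.0322 RPKM after progesterone (SD, n = 4) and 0.220 ± 0.0798 RPKM after vehicle (n = 8) in knockouts, and 0.0871 ± 0.0252 RPKM and 0.301 ± 0.0471 RPKM in floxed uteri. Its log2 responses were −0.29 in knockout (adjusted p = 0.0243; 0.281 without the 5 libraries, and 0.0623, 0.0823 and 0.0603 without progesterone library 5, progesterone library 8 or vehicle library 12) and −0.45 in floxed uteri (adjusted p = 0.000268).

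**Figure D5:**
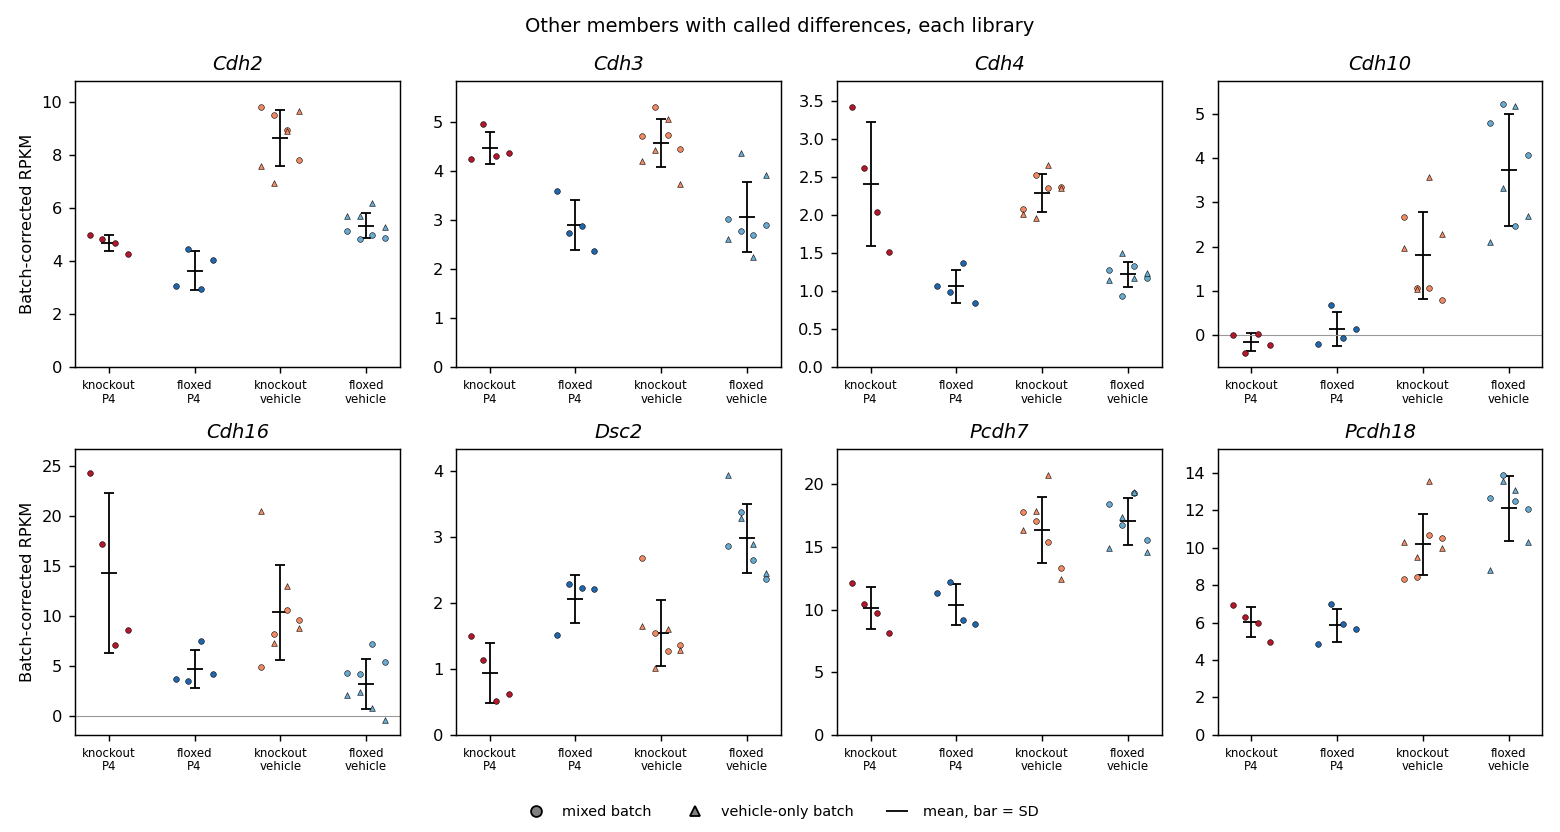
Batch-corrected RPKM of 8 more of the tested genes in each library, by group, with mean and SD; circles are the mixed batch and triangles the vehicle-only batch. Cdh10, Cdh2, Pcdh7 and Pcdh18 are lower after progesterone than after vehicle in both genotypes, and Cdh4 is higher in knockout than in floxed uteri under both treatments.

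The sequences just upstream of the transcription start are shown for Cdh10 and Pcdh18, which fell with progesterone in both genotypes, and for Dsp, which fell in floxed uteri. They are 250 bases each from RefSeq (GRCm38.p6), read 5′ to 3′ on the gene's own strand: Cdh10 at chr15:18820079-18820328 (plus strand; inside the longer GENCODE gene and outside its exons), Pcdh18 at chr3:49757317-49757566 (minus strand; the last 9 bases lie in an annotated exon) and Dsp at chr13:38151044-38151293 (plus strand). Capitals mark E-boxes, CANNTG, the core bound by basic helix-loop-helix factors.
Cdh10: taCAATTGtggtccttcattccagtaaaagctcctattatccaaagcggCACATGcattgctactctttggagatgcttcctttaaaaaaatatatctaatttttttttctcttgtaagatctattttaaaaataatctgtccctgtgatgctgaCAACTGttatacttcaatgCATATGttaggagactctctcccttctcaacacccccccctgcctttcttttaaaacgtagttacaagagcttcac
Pcdh18: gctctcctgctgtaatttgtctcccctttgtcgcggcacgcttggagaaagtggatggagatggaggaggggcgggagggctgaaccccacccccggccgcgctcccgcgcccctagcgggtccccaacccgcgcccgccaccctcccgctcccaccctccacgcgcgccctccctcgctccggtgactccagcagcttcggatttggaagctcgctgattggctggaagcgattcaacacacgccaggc
Dsp: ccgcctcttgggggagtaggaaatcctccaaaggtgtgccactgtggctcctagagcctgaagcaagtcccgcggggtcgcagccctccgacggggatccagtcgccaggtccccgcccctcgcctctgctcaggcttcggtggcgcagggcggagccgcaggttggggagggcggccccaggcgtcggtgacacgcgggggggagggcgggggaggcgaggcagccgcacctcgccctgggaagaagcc
The Cdh10 window holds 4 E-boxes and the other 2 windows hold none; of all 32817 RefSeq promoter windows of this length, 66.2% hold at least 1. The windows also differ in base composition, with 36.8% G or C for Cdh10, 68.0% for Pcdh18 and 72.4% for Dsp, against a median of 52.4% over all windows. Both strands were also searched for the core of a progesterone response element, ACANNNTGT, which 5.84% of all windows hold. The windows of the 8 tested genes with an entry do not hold these letters.

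Some cytoplasmic partners of these cadherins passed, in both directions. Calls of partners were not followed under the alternative settings. Of 16 catenins, plakophilins and plaque proteins, 14 were tested. After vehicle Ctnnd2 (delta-catenin, log2 difference 1.14), Pkp3 (plakophilin-3, 0.64) and Pkp2 (plakophilin-2, 0.45) were higher in knockouts and Pkp4 was lower (−0.20). These 3 higher and 1 lower of 14 compare with 13.1% and 11.5% of all tested genes. After progesterone 5 were higher in knockouts, led by Pkp3 (1.31), Ctnnd2 (0.94) and the plaque linker Evpl (envoplakin, 0.93), with Perp (0.68) and Afdn (0.34). Ppl (periplakin, −0.96) and Vcl (vinculin, −0.34) were lower in knockouts. These 5 higher and 2 lower of 14 compare with 12.3% and 7.06% of all tested genes. In knockout uteri Ctnnd2 (−0.83) and Pkp4 (−0.32) fell after progesterone (4.66% of all tested genes fell). In floxed uteri Ppl (1.09) rose (7.84% of all tested genes did). Evpl (−0.66), Ctnnd2 (−0.63), Pkp4 (−0.47) and Pkp3 (−0.45) fell (15.1% of all tested genes did). Evpl was the partner whose response differed between genotypes, by 0.71 (adjusted p = 0.0443). Over all tested genes 1.46% had a higher response in knockouts.

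Of 19 other cadherin superfamily genes 12 were tested. After vehicle Cdh5 was higher in knockouts (13.1% of all tested genes were). Cdh1 (log2 difference −0.37), Celsr2 (−0.75), Clstn2 (−1.0) and Fat3 (−0.53) were lower (11.5% of all tested genes were). Fat3, a giant cadherin of the Fat family, was also lower in knockouts after progesterone (−1.01), and it fell with progesterone in knockout (−1.42) and in floxed uteri (−0.95). Celsr2, a planar polarity cadherin, fell with progesterone in floxed uteri (−0.81), and its response was higher in knockouts by 0.82 (adjusted p = 0.0287). Over all tested genes 7.06% were lower in knockouts after progesterone. With progesterone 4.66% fell in knockout and 15.1% in floxed uteri, and 1.46% had a higher response in knockouts. Of 4 mesothelial markers Lrrn4 and Upk3b rose in knockouts after vehicle, with sums of 26.2 to 53.1 RPKM in knockout and 16.4 to 42.5 RPKM in floxed uteri. After progesterone Upk3b rose and Upk1b fell in knockouts, with sums of 13.1 to 30.8 RPKM in knockout and 7.30 to 22.9 RPKM in floxed uteri. Leukocyte markers were higher in knockouts throughout: all 4 tested of 6 listed genes rose under both treatments. Their sums were 53.2 to 115 RPKM in knockout and 34.1 to 53.3 RPKM in floxed uteri after progesterone, and 63.0 to 109 RPKM in knockout and 33.1 to 46.0 RPKM in floxed uteri after vehicle. The part of leukocyte or mesothelial content in the cadherin differences was not tested.

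By GENCODE M21 on GRCm38, 12 of the 43 genes lie on chromosome 18, where 5 were tested (Cdh2, Dsc2, Dsg2, Pcdh1 and Pcdh12), and 6 lie on chromosome 8, where 4 were tested (Cdh3, Cdh11, Cdh13 and Cdh16). On chromosome 18 the desmosomal cadherins form a row. After progesterone Dsc3 had −0.0727 to 0.0768 RPKM in floxed uteri, with values below 0 from the correction. Its neighbour Dsc2 (chr18:20030633-20059554) had 1.52 to 2.28 RPKM there, below its range of 2.36 to 3.94 RPKM in floxed vehicle uteri. In floxed uteri after progesterone Dsg4 had 0.568 RPKM or more, while its neighbour Dsg3 had at most 0.196 RPKM and its neighbour Dsg1b was at or below 0. On chromosome 8, Cdh16, Cdh3, Cdh13 and Cdh11 were higher in knockouts after vehicle by 1.79, 0.53, 0.49 and 0.31 (13.1% of all tested genes were higher). The part of gene position in these differences was not tested.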

How the data were processed

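Trizol RNA, treated with DNase and cleaned with a Zymo kit, went into Illumina TruSeq libraries, per the labels' protocols. The build mm10 and the tools cutadapt 2.7, TopHat and Partek come from the submitters' processing notes. For the read counter, its annotation, its strand setting and the correction tool, nothing is given in the sources at hand. The values deposited by the authors are RPKM per gene to which a batch correction was applied, which makes them neither counts nor plain RPKM, and 6.66% of them are negative. The correction was taken to add 1 constant per gene and batch. In 13669 of 13669 genes with a mean above 1, vehicle libraries of either batch had the same mean (relative tolerance 0.0001). Other corrections that match means would give this too, so the check cannot show a constant, though scaling alone would give no values below 0. Such a constant leaves RPKM differences within a batch unchanged and alters ratios, most in low genes.

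Values below 0 were set to 0, and log2(RPKM + 0.5) was fitted with limma 3.58.1 in R 4.3.3 (eBayes, trend and robust both on) on 4 groups and a batch term; there were 19 residual degrees of freedom and, in the median, 3.34 prior degrees. Two-sided tests covered the 14284 genes that reached 1 RPKM in 4 or more libraries, p-values were adjusted over all of these by the Benjamini-Hochberg method with a threshold of 0.05, and intervals are 95%. The fit was checked on simulated data with known changes. Of the tested genes described, Cdh10 had values below 0 in 5 libraries and Cdh16 in 1. Depth was estimated from steps between low values of at least 228 genes per library. Vehicle libraries whose numbers differ only by a letter (1a, 1b; 11a, 11b) were no closer to each other than other cross-batch pairs and were kept apart. Positions are from GENCODE M21 and promoter sequences from RefSeq; sequence figures are descriptions. Named were all members called in a comparison, the 8 with the highest mean, partners with calls, and Ctcf; Dsg4, Dsc3, Pcdh10, Dsg3, Krt5 and Ovgp1 were named after their values were seen. The members, lists and tests were chosen with earlier results of these data known.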

Additional observations from a re-analysis of the deposited data

Results flagged for a closer look

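Within the groups of 4 or 8 libraries, 6 of 72 combinations of tested gene and group held 1 library far from the rest, where chance gives about 1 in 20. Dsc2 was highest in knockout vehicle library 9 (2.68 RPKM, next 1.65) and lowest in floxed progesterone library 1 (1.52 RPKM, next 2.21). Dsg2 was highest in floxed vehicle library 1a (7.14 RPKM, next 5.24), which also had the highest sum of simple epithelial markers after vehicle (590 RPKM). Pcdh1 was highest in floxed vehicle library 10 (15.7 RPKM, next 12.9), Pcdh18 in knockout vehicle library 11a (13.6 RPKM, next 10.7) and Pcdh19 in floxed progesterone library 9 (1.07 RPKM, next 0.769).

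The response to progesterone differed between genotypes by a test of the difference itself in 2 of the 18 tested genes. For Cdh11 the knockout response minus the floxed response was −1.30 on the log2 scale, and for Dsp it was 0.89.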

How the results depend on the processing

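The counts of called genes among the 18 tested (higher and lower in turn) were 8 and 3 for knockout against floxed after vehicle, 3 and 2 for the same after progesterone, 0 and 5 for progesterone against vehicle in knockouts, 1 and 6 in floxed uteri, and 1 and 1 for the difference in response. The other pseudocounts, the linear scale, quantile normalization, the fit without a batch term and leaving out the 2 libraries with squamous markers kept every one of these counts within 1.5 times. A filter at 5 RPKM gave 5 and 1 after vehicle and 1 and 1 between genotypes after progesterone; fewer genes were tested. No filter gave 5 lower after vehicle, 8 lower in knockouts, 2 higher in floxed uteri and 2 lower for the difference, since genes below 1 RPKM entered. Weights per library gave 5 lower after vehicle and 6 higher between genotypes after progesterone. They also gave 2 higher and 10 lower in knockouts, and 3 higher for the difference. Calls rose with weights over all 14284 tested genes too. After vehicle 3176 of these were lower (1638 without weights), and between genotypes after progesterone 3813 were higher (1758). In knockouts 2184 were higher and 3781 lower (572 and 666), and for the difference 2381 were higher (208). The cause was not tested. The mixed batch alone gave 4 higher after vehicle and 0 higher for the difference, and the vehicle-only batch alone 5 higher; each has fewer samples. Without the 5 libraries with oviduct or squamous markers the counts were 7 and 4, 2 and 2, 0 and 4, 1 and 6, and 1 and 1. Leaving out each library in turn gave 7 to 8 higher and 3 to 4 lower after vehicle, 2 to 3 and 2 between genotypes after progesterone, 0 and 4 to 7 in knockouts, 1 and 6 to 7 in floxed uteri, and 0 to 1 and 1 for the difference.

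No pairing of samples by replicate number was plain, and correlations spread this widely cannot decide whether there was any. Over 13 pairs with the same number, the correlation of deviations from group means ran from −0.342 to 0.544 (median 0.0968). Over 227 pairs with different numbers it ran from −0.560 to 0.643 (median −0.000897). With the replicate block 4 of the tested members were higher after vehicle, and 1 and 0 passed between genotypes after progesterone. Besides Cdh11, given below, calls after vehicle were lost for Dsp (−0.37, adjusted p = 0.127) and Cdh24 (0.54, adjusted p = 0.0839). The same held for Cdh13 (0.46, adjusted p = 0.121) and Pcdh12 (0.05, adjusted p = 0.777). In knockouts 0 were lower, and 0 and 0 passed for the difference. Calls also fell over all 14284 tested genes. With the block 1392 of these were higher after vehicle (1878 without it). Between genotypes after progesterone 478 were higher and 344 lower (1758 and 1009 without it). In knockouts 96 were lower (666 without it), and for the difference 9 were higher and 17 lower (208 and 147 without it). Dsc2 between genotypes after progesterone reversed with the block to 0.24 (adjusted p = 0.518). No other value that had passed changed sign, but 34 that had not passed did so under at least 1 alternative; with the block these included Dsg2 (0.40) and Cdh13 (−0.15) between genotypes after progesterone and the knockout responses of Dsc2 (0.14) and Cdh11 (0.22). Cdh11 with the block was −0.54 between genotypes after progesterone (adjusted p = 0.142) and its difference in response −0.86 (adjusted p = 0.118), against −0.995 and −1.30 without it, and it did not pass after vehicle (0.33, adjusted p = 0.0850). For Dsg4, Dsc3 and Pcdh10 the fits without a filter were repeated under further settings chosen after seeing the data; with the block the difference in response of Dsg4 was −0.98 (adjusted p = 0.0577), and its other calls held in each setting, while the knockout responses of Dsc3 (−0.78, adjusted p = 0.0908) and Pcdh10 (−0.19, adjusted p = 0.627) lost their calls with it. Dsc3 between genotypes after progesterone passed with a pseudocount of 0.1 (adjusted p = 0.00149). Depth limits the 25 genes below the filter, where a difference of a few hundredths of an RPKM is a few reads.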
